A study of Homo sapiens with 2 samples.

Results

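ATP-binding cassette (ABC) transporters are membrane proteins that spend ATP to move substrates across the plasma membrane or the membranes of organelles. They were read here in the CD90+ and CD90- cells of KYSE-140, a human esophageal squamous carcinoma line. Members were the probe sets whose annotation gave a single gene symbol of ABCA, ABCB, ABCC, ABCD, ABCE, ABCF or ABCG followed by a number. They were 92 probe sets of 41 protein-coding genes, out of 19775 genes with a probe set on the array. A further 7 probe sets belonged to 4 ABC pseudogenes and were kept apart. The transporters TAP1, TAP2 and CFTR, which belong to the same superfamily under other names, were not members, and ABCA10 and ABCC6 were not analysed here.

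The line had been separated by flow cytometry into cells with and without surface CD90, the product of THY1, and total RNA of each population was read on 1 Affymetrix U133 Plus 2.0 array. No treatment is named in the labels, and the model is a single established line sorted once. With 1 array per population there was no spread between replicates, no test and no interval: every fold below describes these 2 RNA samples. Signals are in linear units of MAS5, the Affymetrix algorithm, and both arrays shared a trimmed mean (2 to 98%) of 499.9. A gene was called measured when the probe set standing for it reached a floor of 71.6, the middle of all signals, on at least 1 array. The floor is not a detection call. Signals below it were set to it before a ratio was taken, which makes the fold a lower bound where only one population reached it. A ratio on the log2 scale is CD90+ over CD90-, so values above 0 are higher in CD90+ cells.

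THY1 read 293 in CD90+ and 78.9 in CD90- cells, in the direction of the sort. The 5 squamous markers with a probe set (KRT5, KRT14, SOX2, DSG3 and CDH1) read between 2898 and 23329 in CD90+ cells and between 2036 and 27407 in CD90- cells, and 0 of them were beyond 2-fold. All 5 fibroblast markers and all 3 leukocyte markers with a probe set were under the floor on both arrays. Of 3 endothelial markers, PECAM1 read 98.5 in CD90+ and 70.9 in CD90- cells and VWF and CDH5 were under the floor on both. The summed signal in CD90+ and CD90- cells was 159 and 124 for the fibroblast, 134 and 83.7 for the endothelial and 38.5 and 106 for the leukocyte markers.

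The family is divided by sequence into subfamilies that only partly follow function. Members of ABCB, ABCC and ABCG export drugs, bile salts and conjugates of glutathione, glucuronate or sulphate, and are known for their part in resistance to chemotherapy. Most ABCA members and several ABCG members move lipids and sterols, ABCD members and some ABCB members serve peroxisomes, mitochondria or lysosomes, and ABCE and ABCF proteins have the ATP-binding domains without a membrane part and act on ribosomes. ABCG2 and ABCB1 are also known for the side population assay, in which cells that pump out a dye are sorted as candidate stem-like cells.

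Most ABC genes that could be measured differed little between the populations. Of the 41 genes 24 were measured (58.5%), against 63.0% of all genes with a probe set. At least 2-fold higher in CD90+ cells were ABCC3 and ABCB9, ABCA13 was lower by that much, and 21 fell between these limits. At 2-fold, 8.33% of the measured ABC genes were higher, against 2.47% of the 12466 measured genes, and 4.17% were lower, against 1.75%. These shares rest on 2 genes and 1 gene. Within 1.5-fold lay 19 of the 24 (79.2%), against 85.9% of all measured genes. The ratio was below 0 in 14 ABC genes (58.3%), against 48.8% of all measured genes. The median log2 ratio was -0.09 for the ABC genes and 0.01 for all measured genes.

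**Figure D1:**
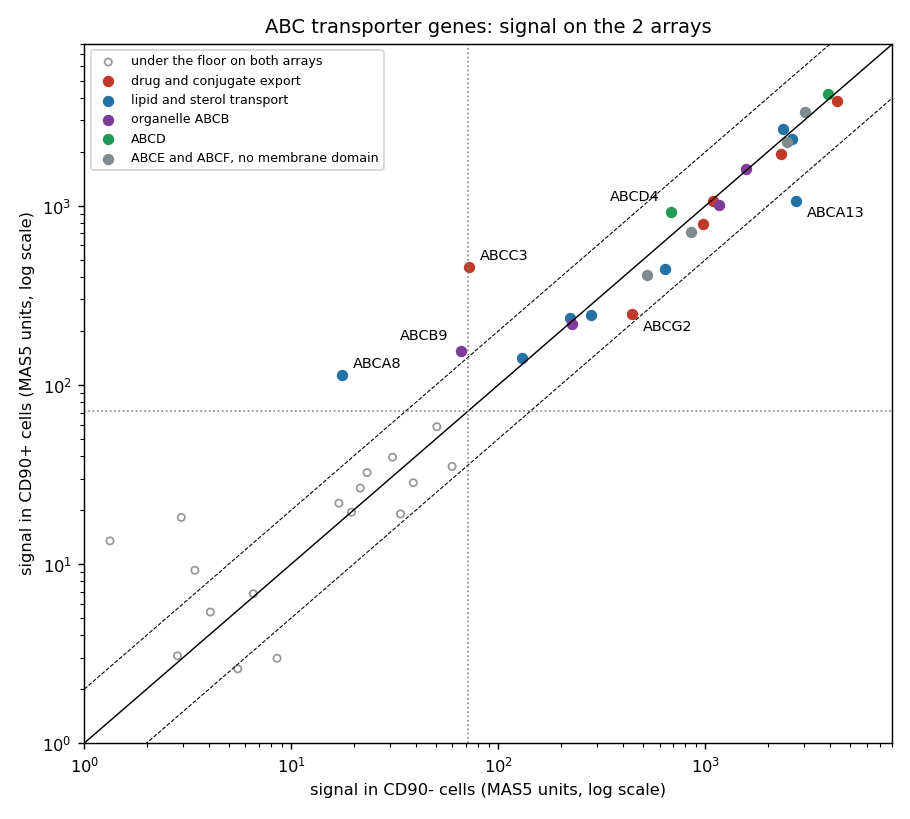
Signal of the standing probe set of each of 41 ABC genes in CD90- cells (x axis) and CD90+ cells (y axis), both in MAS5 units on log scales; the solid line is equality, the dashed lines are 2-fold, and the dotted lines are the floor of 71.6. Filled points are the 24 measured genes, coloured by role, and open points are the 17 under the floor on both arrays; ABCC3 lies farthest above the line among measured genes whose signals both reach the floor, and ABCA13 farthest below it.

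Start-site sequences were available for 33 of the 41 genes, and those of ABCA13 and ABCB9 are shown because they are the genes beyond 2-fold that had an entry. With 1 gene in each direction they are a description and no comparison of higher with lower genes. Each is 250 bases before to 50 bases after a start site, written 5′ to 3′ along the gene, from RefSeq on GRCh38.p14. ABCA4, ABCA8, ABCB4, ABCB5, ABCC1, ABCC3, ABCC8 and ABCG1 had no entry. Capitals mark matches, on either strand and with overlaps allowed, to the GC box GGGCGG bound by Sp1, the core GCGTG bound by the aryl hydrocarbon receptor, the antioxidant response element TGACNNNGC bound by NRF2 or the TATA box TATAAA. The window of ABCA13 is chr7:48171208-48171507 on the plus strand, and the 3 of ABCB9 are chr12:122966414-122966713, chr12:122974520-122974819 and chr12:122975065-122975364 on the minus strand, in this order.
ABCA13: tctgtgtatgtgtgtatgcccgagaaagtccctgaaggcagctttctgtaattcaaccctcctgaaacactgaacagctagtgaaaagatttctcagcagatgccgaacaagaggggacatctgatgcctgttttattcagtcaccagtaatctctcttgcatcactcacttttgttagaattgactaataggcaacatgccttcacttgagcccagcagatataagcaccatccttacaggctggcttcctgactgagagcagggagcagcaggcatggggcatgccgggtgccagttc
ABCB9, start 1: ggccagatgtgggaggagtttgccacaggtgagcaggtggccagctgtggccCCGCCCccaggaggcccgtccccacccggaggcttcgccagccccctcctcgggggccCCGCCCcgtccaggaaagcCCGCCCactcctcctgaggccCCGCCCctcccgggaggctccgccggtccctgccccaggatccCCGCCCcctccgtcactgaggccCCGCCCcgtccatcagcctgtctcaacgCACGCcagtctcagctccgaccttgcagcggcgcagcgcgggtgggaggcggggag
ABCB9, start 2: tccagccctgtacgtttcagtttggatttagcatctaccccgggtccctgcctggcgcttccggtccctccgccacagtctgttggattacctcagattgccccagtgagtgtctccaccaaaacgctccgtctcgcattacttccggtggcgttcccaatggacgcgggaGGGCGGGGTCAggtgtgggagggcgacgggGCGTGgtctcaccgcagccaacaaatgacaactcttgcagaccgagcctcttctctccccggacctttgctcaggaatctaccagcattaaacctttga
ABCB9, start 3: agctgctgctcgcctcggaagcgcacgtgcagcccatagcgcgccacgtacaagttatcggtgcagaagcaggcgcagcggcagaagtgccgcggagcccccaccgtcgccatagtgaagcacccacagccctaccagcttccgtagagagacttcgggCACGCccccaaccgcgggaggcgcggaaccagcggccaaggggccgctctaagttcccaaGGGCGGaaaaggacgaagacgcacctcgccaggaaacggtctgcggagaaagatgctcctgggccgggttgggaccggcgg

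The ABCA13 window held no match to these motifs, and its GC content was 48.3%. The ABCB9 windows held 6, 1 and 1 matches to the GC box and 1 each to GCGTG, with a GC content of 75.3%, 58.7% and 66.7%, and the second also held 1 antioxidant response element, which overlaps its GC box. Over all start sites of the family the windows of measured and unmeasured genes differed in composition: the median GC content was 66.2% over 28 windows of 20 measured genes and 48.7% over 21 windows of genes under the floor, against 58.7% over all 35116 windows. A GC box lay in 20 of the 28 windows of measured genes (71.4%) and 5 of the 21 of unmeasured genes (23.8%), against 45.0% of all windows. The antioxidant response element lay in 10 of 28 (35.7%) and 2 of 21 (9.52%), against 13.3% of all windows. GCGTG lay in 20 of 28 (71.4%) and 3 of 21 (14.3%), against 36.5%, and TATAAA in 3 of 28 (10.7%) and 4 of 21 (19.0%), against 11.5%. The windows of all genes were not split into measured and unmeasured, so whether this difference is particular to the family was not tested. Genes with several start sites count with each of their windows. Windows of the same gene can overlap, motif counts and GC content are not independent, and a match is a description of letters and not a bound site.

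Among drug and conjugate exporters, ABCC3 was higher in CD90+ cells and the other measured members had ratios below 0. Of 11 genes with a probe set 6 were measured, 1 passed 2-fold upward, 0 passed it downward and 5 lay between, with a median log2 ratio of -0.20. ABCC3 (MRP3), an exporter of glucuronides and bile salts, is carried by 5 probe sets. The one standing for the gene read 454 in CD90+ and 71.9 in CD90- cells and was 6.32-fold higher, rank 16 from the top among the 12466 measured genes. The second, which matches several transcripts as the first does, read 169 against 11.0, at least 2.35-fold. Of the class prone to cross-hybridisation, one read 155 against 44.6 (at least 2.17-fold) and one 174 against 94.8 (1.83-fold). The fifth, which is specific to the gene by its class, was under the floor on both arrays at 34.5 and 25.7. Where both populations reached the floor the probe sets thus gave 1.83-fold and 6.32-fold, and the pair that reached it in CD90+ cells alone gave lower bounds, a direction that follows from how they passed. The CD90- signal of the standing probe set lay just above the floor, so the size depends on it: when 397, the 75th percentile of signals, served as floor, the fold was at least 1.14, by the mean over probe sets it was 2.77, and without probe sets shared between transcripts the gene was not measured.

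ABCG2 (BCRP), the exporter that empties side population cells of dye, went the other way without reaching 2-fold. Its 1 probe set read 248 in CD90+ and 444 in CD90- cells, 1.79-fold lower, with a log2 ratio of -0.84, and 2.81% of the measured genes had a lower ratio. With the floor at the 75th percentile it was at least 1.12-fold lower. Its 50 nearest genes on chromosome 4 had a median log2 ratio of 0.09.

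The remaining measured exporters were close to equal in both populations. ABCC1 (MRP1), an exporter of glutathione conjugates, read 3844 in CD90+ and 4301 in CD90- cells (log2 ratio -0.16), and 291 against 345 on its second probe set. ABCC4 (MRP4), an exporter of cyclic nucleotides and prostaglandins, read 1953 against 2309 (-0.24), 456 against 562 (-0.30) and 78.8 against 95.3 (-0.27). ABCC4 was thus slightly lower in CD90+ cells on its 3 measured probe sets, with the remaining one under the floor. ABCC5 (MRP5), a nucleotide exporter, read 796 against 970 (-0.29), 771 against 822 (-0.09) and 186 against 330 (-0.83), so that its 3 probe sets had one sign and unequal sizes. ABCC10 (MRP7), which exports taxanes, read 1056 against 1089 (-0.04), while its second probe set, of the cross-hybridising class, read 190 against 329 (-0.80). ABCC1, ABCC4, ABCC5, ABCC10 and ABCG2 kept ratios below 0 under every alternative that gave them a value.

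The other 5 exporters with a probe set were under the floor on both arrays. ABCB1 (P-glycoprotein) read 19.0 in CD90+ and 33.7 in CD90- cells on the probe set standing for it, and 8.40 against 38.3 on the other. A further probe set annotated to both ABCB1 and ABCB4, and so not named for either, read 1.80 against 6.04. ABCC2 (MRP2), the exporter of conjugates into bile, read 35.0 against 59.8 on its 1 probe set. ABCB5, ABCC11 and ABCC12 made up the rest. No fold is given for these 5 genes, since neither population reached the floor.

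**Figure D2:**
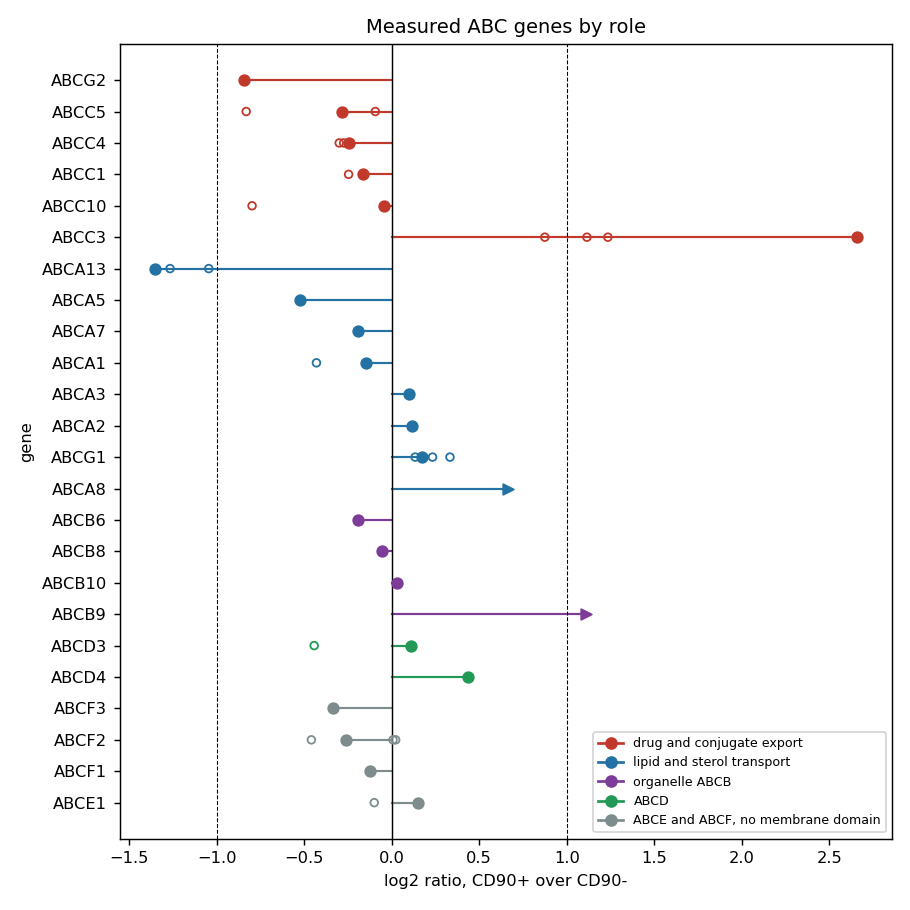
Log2 ratio of CD90+ over CD90- signal (x axis) for the 24 measured ABC genes (y axis), grouped and coloured by role; filled symbols are the probe set standing for each gene, triangles are lower bounds with CD90- under the floor, open circles are its other measured probe sets, and dashed lines mark 2-fold. ABCC3 at 2.66 and ABCB9 at 1.11 lie past 2-fold on the right and ABCA13 at -1.35 on the left.

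Among lipid and sterol transporters ABCA13 was lower in CD90+ cells, and the others lay within 2-fold. Of 17 genes with a probe set 8 were measured, with 0 past 2-fold upward, 1 past it downward and 7 between, and a median log2 ratio of -0.02. That median was 0.11 with the floor at the 25th and -0.34 with it at the 75th percentile. ABCA13, a very large ABCA member with a role in lipid transport, read 1068 in CD90+ and 2726 in CD90- cells and was 2.55-fold lower. Its other probe sets read 345 against 829, 2.40-fold lower, and 107 against 220, 2.06-fold lower. All 3 probe sets of ABCA13 were thus lower in CD90+ cells by more than 2-fold, and both signals of each were above the floor. The gene ranked 87 from the bottom of the measured genes, and the median log2 ratio of its 50 nearest genes on chromosome 7 was -0.11. Its log2 ratio stayed between -1.36 and -1.04 over 10 alternatives.

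The sterol exporters ABCA1 and ABCG1, both classical targets of the LXR receptors, were close to equal. ABCA1, which loads cholesterol and phospholipid onto apolipoprotein A1, read 2368 in CD90+ and 2625 in CD90- cells (log2 ratio -0.15), and 645 against 869 (-0.43) on its second measured probe set. ABCG1, which exports cholesterol to lipoprotein particles, read 2683 against 2377 (0.17), 494 against 451 (0.13), 489 against 388 (0.33) and 235 against 200 (0.23). ABCA1 was lower on its 2 measured probe sets and ABCG1 higher on its 4, each by less than 1.5-fold. The LXR receptor gene NR1H3 read 503 against 482.

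The other ABCA genes were measured on 1 probe set each. ABCA5, a lysosomal member, read 443 in CD90+ and 637 in CD90- cells (1.44-fold lower), and ABCA8, which lies in the same cluster on chromosome 17, read 114 against 17.7, at least 1.59-fold higher. Without a floor the ABCA8 fold was 6.43, which brought the ABC genes at least 2-fold higher to 3. This fold rested on the CD90- signal of 17.7, which lies under the floor. Both other probe sets of ABCA8 were under the floor in both populations. Its neighbours ABCA6 and ABCA9 in that cluster were under the floor. ABCA2, a lysosomal transporter best known from myelinating cells, read 141 against 130, ABCA3, the lipid transporter of lung surfactant, 237 against 221, and ABCA7, a phospholipid transporter, 245 against 280.5. ABCA12, which supplies lipid to the skin barrier, read 26.5 against 21.5, under the floor on both arrays. The retinal ABCA4, the bile transporters ABCB4 and ABCB11, and ABCG4, ABCG5 and ABCG8, of which the last 2 form the sterol exporter of liver and gut, were under the floor as well.

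Among the ABCB genes of organelles, ABCB9 was higher in CD90+ cells and ABCB6, ABCB8 and ABCB10 were close to equal. ABCB9, a lysosomal peptide transporter related to TAP, read 155 in CD90+ and 66.1 in CD90- cells on the probe set standing for it, at least 2.16-fold. Its other probe sets were under the floor on both arrays, at 68.2 against 59.8 and at 14.1 against 5.95. The call thus rests on 1 probe set near the floor, and ABCB9 was not measured with the floor at the 75th percentile or without the classes shared between transcripts. ABCB6, a porphyrin transporter, read 1011 against 1156 (log2 ratio -0.19). ABCB8 and ABCB10, both of the inner mitochondrial membrane, read 217 against 226 (-0.05) and 1604 against 1569 (0.03).

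**Figure D3:**
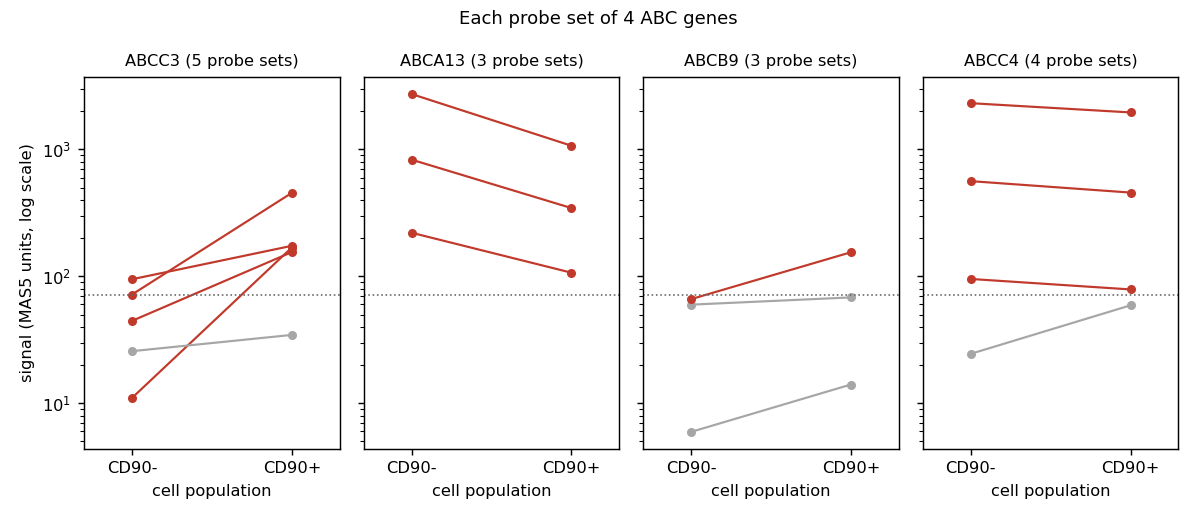
Signal of every probe set (y axis, MAS5 units, log scale) in CD90- and CD90+ cells (x axis) for ABCC3, ABCA13, ABCB9 and ABCC4; each line is 1 probe set, red where it reached the floor of 71.6 (dotted line) on at least 1 array and grey where it did not. The 3 lines of ABCA13 fall side by side, those of ABCC3 rise by unequal amounts, ABCB9 has 1 measured line, and the 3 measured lines of ABCC4 fall slightly.

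Members of subfamily D had ratios above 0 on the probe sets standing for them. ABCD3, which imports fatty acids into peroxisomes, read 4228 in CD90+ and 3915 in CD90- cells (log2 ratio 0.11), but 1342 against 1824 (-0.44) on its second probe set, so the direction was not shared by its probe sets. ABCD4, which exports cobalamin from lysosomes, read 922 against 681, 1.35-fold higher. ABCD2, the other peroxisomal member with a probe set, was under the floor on both arrays.

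Members without a membrane domain were measured throughout and differed by less than 1.5-fold. ABCE1, which splits ribosomes after termination, read 3354 in CD90+ and 3022 in CD90- cells (log2 ratio 0.15) on one probe set and 2890 against 3097 (-0.10) on the other. ABCF1, a partner of the initiation factor eIF2, read 2269 against 2469 (-0.12). ABCF2 read 714 against 856 (-0.26) on the probe set standing for it and between -0.46 and 0.02 on its other measured probe sets. ABCF3 read 412 against 520 (-0.34). The 3 ABCF genes had ratios below 0, with a median of -0.26, or -0.18 after the median of the 50 nearest genes was subtracted. Without shared probe sets ABCF2 read 0.02 and the median was -0.05, and by the smallest change ABCF2 read 0.0078. ABCF3 and the exporter ABCC5 lie close together on chromosome 3, among genes with a median of -0.16. ABCF2 and ABCB8 lie on chromosome 7 among genes with medians of -0.21 and -0.22.

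ABCC8 and ABCC9, the sulphonylurea receptors that form ATP-sensitive potassium channels instead of pumping a substrate, were under the floor on both arrays on all of their 7 probe sets. Their channel partners KCNJ8 and KCNJ11 were under it as well. Over all 17 unmeasured ABC genes, 33 probe sets read from 1.33 to 59.8. Of the pseudogenes ABCA17P alone was measured, at 406 in CD90+ and 554 in CD90- cells (1.36-fold lower), and ABCA11P, ABCC13 and ABCC6P1 were under the floor. TAP1 and TAP2, the peptide transporters of antigen presentation, read 624 against 694 and 875 (874.5) against 1115, and the chloride channel CFTR was under the floor.

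Agreement between probe sets of a gene was the only repeated measurement. In 11 ABC genes with several measured probe sets the pooled SD of log2 ratios was 0.39, or 0.25 without ABCC3, against 0.31 over 6188 genes of the whole array. Probe sets had one sign in 8 of the 11 genes and both signs in ABCD3, ABCE1 and ABCF2. Over all 44 measured ABC probe sets 4 passed 2-fold upward (3 of ABCC3 and 1 of ABCB9), against 1.98% of all measured probe sets, and 3 downward, all of ABCA13, against 1.56%. Of those upward, only the standing probe set of ABCC3 reached the floor in both populations. The others reached it in CD90+ cells alone, so their direction follows from how they passed. Probe sets of the same gene are not separate genes, so these counts rest on few genes. All probe sets of a gene were read on the same 2 arrays, so their spread covers probe design and the noise of single probe sets. It does not cover noise shared by a whole array or any difference between sorts. For ABCC3 it includes lower bounds.

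Counts at 2-fold for genes that work beside the ABC transporters stand against 2.47% of all measured genes upward and 1.75% downward. Of 16 measured uptake and other drug transporters 0 passed 2-fold upward and 1 passed it downward, with a median log2 ratio of 0.35 that ran down to 0.07 over the alternatives. That gene was SLCO1B3, an organic anion importer, at 120 in CD90+ and 418 in CD90- cells (3.49-fold lower). The downward count of the list was 0 with the floor at the 75th percentile. It was 2 with ratios scaled to a median of 0 or the 50 nearest genes' median subtracted. With the floor at the 25th percentile 1 gene passed upward. The exporters of organic cations SLC47A1 and SLC47A2 read 93.8 against 174 and 90.2 against 179, just short of 2-fold. Of 13 measured partners of sterol transport 1 passed 2-fold upward and 0 downward, with a median of 0.24. It was CYP27A1, which makes an oxysterol ligand of LXR, at 163 against 30.8, at least 2.28-fold. It was not measured under the 75th percentile floor, and the list's median was -0.06 without probe sets shared between transcripts.

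In the main setting none of the other partner lists had a member past 2-fold. The regulators of ABC genes had 19 measured members and a median log2 ratio of -0.04. Of them 1 was past 2-fold downward without a floor, and 1 each way with the floor at the 25th percentile. Their 2 brightest were YBX1 (24092 in CD90+ and 24761 in CD90- cells) and HIF1A (15758 against 15507). NFE2L2, which encodes NRF2, a known activator of ABCC3, was 1.64-fold lower in CD90+ cells at 4057 against 6657 (log2 ratio -0.71). Its 50 nearest genes had a median log2 ratio of -0.37, of the same sign. Neither a shift shared with these neighbours nor a link of NFE2L2 to ABCC3 was tested. The 16 measured genes of glutathione metabolism and conjugation, which supply substrates to the ABCC exporters, had a median of 0.06, with GSTP1 at 22531 (22530.5) against 21636 and GSTO1 at 21509 against 23826. The 10 peroxisomal partners had a median of 0.01, with ACBD5 at 3309 against 3247 and HSD17B4 at 2747 against 2913. The 12 genes of heme and iron-sulphur synthesis had a median of 0.03, with ISCU at 13216 against 11339 and GLRX5 at 6623 against 6489. That median turned to -0.31, with 1 member past 2-fold downward, without the shared probe sets, and to -0.15 by the mean over probe sets. The 11 translation partners of ABCE1 and the ABCF proteins had a median of -0.00099, with ETF1 at 15133 against 15234 and EIF2S1 at 12812 against 12713.

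**Figure D4:**
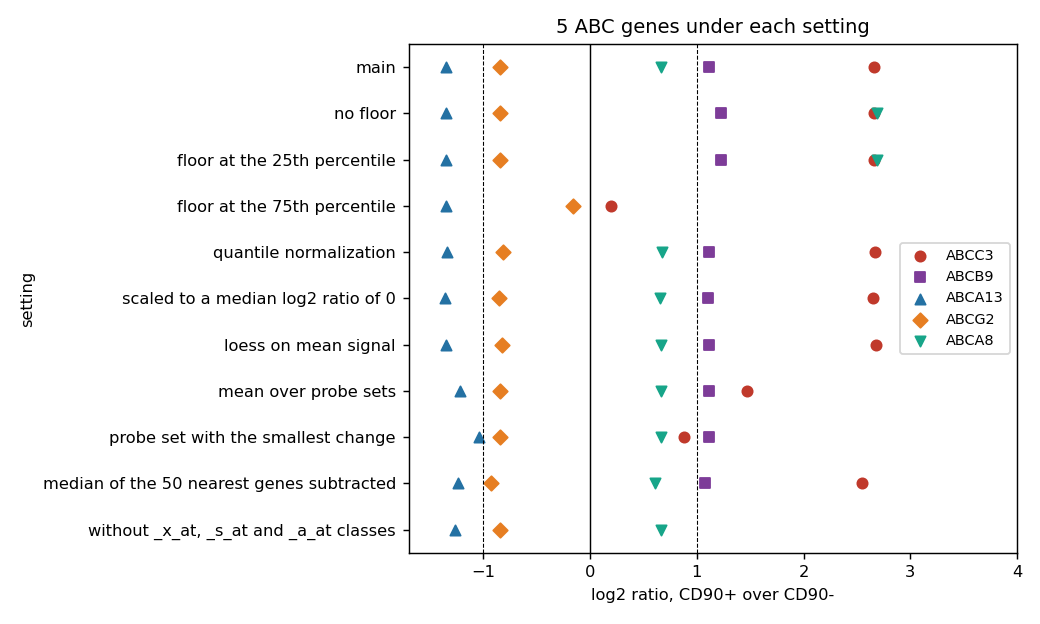
Log2 ratio of CD90+ over CD90- signal (x axis) for ABCC3, ABCB9, ABCA13, ABCG2 and ABCA8 under the main setting and 10 alternatives (y axis); dashed lines mark 2-fold, and a gene without a symbol in a row was not measured there. ABCA13 stays past 2-fold in each row, ABCC3 runs from 0.19 to 2.68, and ABCA8 moves from 0.67 to 2.69 where the floor is lowered or removed.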

How the data were processed

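Total RNA of 2 samples, 1 CD90+ and 1 CD90-, was hybridised to 1 array each. MAS5 was used by the authors, according to the submitters' processing notes; no version or setting is given in the sources used here. Deposited values are linear signal intensities of 54675 probe sets. Array medians were 72.2 and 71.3, and precision is limited by the number of arrays. The platform annotation gave 41097 probe sets 1 symbol and 1801 several, which were not named; 41043 gene identifiers matched RefSeq GRCh38.p14.

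As floor served the geometric mean of the array medians, with the 62 control probe sets left out. The probe set with the highest mean log2 signal stood for a gene, the _x_at class only where no other existed. Every measured ABC gene was named with its values. Partner lists gave members beyond 2-fold or the 2 brightest, and NFE2L2, NR1H3, SLC47A1 and SLC47A2 were singled out after their values were seen. Members and lists were chosen with earlier results of these data known. The procedure was tested on simulated data, with changes planted only in genes whose mean signal exceeded 4 times the floor. ABCC3 and ABCB9 lie below that range, so the simulation does not speak to their calls. The noise added was of a fixed size and not fitted to the spread of these data. The simulation therefore checks the computation and does not measure the error of these arrays. Python 3.11.15, numpy 2.4.6, pandas 2.3.3, statsmodels 0.14.6 and matplotlib 3.10.9 were used.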

Additional observations from a re-analysis of the deposited data

How the results depend on the processing

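The alternatives were 2 other floors and none, 3 normalizations, 3 choices of probe set and subtraction of the 50 nearest genes' median. ABCA13 was at least 2-fold lower under all 10, and the count of lower ABC genes stayed at 1. ABC genes at least 2-fold higher numbered 0 with the floor at the 75th percentile, 1 by the probe set with the smallest change (ABCB9), and 0 without the _x_at, _s_at and _a_at classes, which left 15 ABC genes measured. The count was 3 without a floor or with it at the 25th percentile, and 2 otherwise. The median of the ABC genes ran from -0.17 to -0.02, and that of the drug and conjugate exporters from -0.34 to -0.13. Subtraction of the neighbours' median turned the sign of ABCA3, ABCA7, ABCB8 and ABCB10, the mean over probe sets that of ABCD3 (-0.17), the smallest change those of ABCE1 (-0.099) and ABCF2, and leaving out shared classes that of ABCF2. With the floor at the 25th and 75th percentiles the medians were 0.13 and 0.0074 for subfamily ABCG (main -0.33) and 0.10 and -0.52 for ABCA (main -0.15). Over all genes, at least 2-fold higher and lower numbered 308 and 218 in the main setting, 541 and 381 without a floor, 1122 and 835 with the lower floor and 89 and 66 with the higher, and 143 were lower by the smallest change. The ratio of ABCA13 kept its sign under all 10 alternatives, and those of ABCC3 and ABCB9 kept theirs wherever they were measured. ABCB9 reached the main floor in CD90+ cells alone, as did ABCC3 the floor at the 75th percentile. There the sign follows from how they passed and adds no support. No paired analysis was possible because each population has 1 array. Signals near the floor limit ABCC3, ABCB9 and ABCA8.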
